A study of Mus musculus with 12 samples.

Results

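The wild-type response to lipopolysaccharide (LPS) at 4 h was described from 4 of the 12 arrays of the series, the 2 of wild-type macrophages kept with LPS for 4 h and the 2 of wild-type macrophages kept for 4 h without it. The 4 arrays were chosen by their labels alone, with no measured value. The cells were mouse bone marrow macrophages grown at 37°C in a serum-free macrophage medium to which 10% fetal calf serum and 30% L-929 cell conditioned medium were added, the latter a common source of the macrophage growth factor CSF1. LPS was given at 1 µg/ml. The other 8 arrays were wild-type cells after 1 h of LPS and cells of mice carrying a kinase-dead form of IRAK4 (KD), unstimulated for 4 h or with LPS for 1 h or 4 h. Each of the 6 groups had 2 biological replicates, and the labels used here name no strain background, allele construction or age and do not say whether replicates came from separate animals. The p-values therefore measure the spread between arrays, which may be technical.

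LPS, a cell wall lipid of Gram-negative bacteria, is bound by the receptor TLR4 with its partners MD-2 and CD14. TLR4 signals through the adaptor MyD88 and the IRAK kinases to NF-kappaB and MAP kinases, and through the adaptor TRIF to interferon regulatory factors and interferon-beta. Macrophages exposed to LPS are known both to switch on cytokine, chemokine and antiviral genes and to switch off part of the resting program, including lineage factors, surface receptors and growth genes.

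The arrays were one-colour Affymetrix arrays, 1 per culture, and each value is a MAS5 signal, a linear brightness that the authors scaled to the same trimmed mean of 150 on every array. Changes below are differences in log2(signal + 4.4), LPS minus unstimulated, with the standard error of the fit. Because 4.4 is added, a change understates that of a gene whose signal lies near or under 4.4. The median signal was 22 and 21.8 on the unstimulated arrays and 20.4 and 18.9 on the LPS arrays. Replicates correlated at 0.959 and 0.956 (Spearman, across probe sets), against 0.913 to 0.934 between the groups. The log2 ratio of the 3′ to the 5′ control probe set, a sign of RNA quality, was 0.81 and 1.02 for Gapdh in unstimulated cells and 1.03 and 1.01 after LPS. The same ratio for Actb was 2.22 and 2.48 in unstimulated cells and 2.55 and 2.59 after LPS. The part of the median signal and of these ratios in the results was not tested. No probe set on the array is assigned to Irak4, so the kinase-dead label could not be checked against its own transcript.

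The label of the cells was checked against marker genes. Of 11 macrophage markers, 1 was lower and 1 higher after LPS, and the rest did not pass the test. Csf1r, the receptor for CSF1, had signals of 3717.2 and 4277.2 in unstimulated cells and 4686.3 and 4273.8 after LPS. Lyz2, the macrophage lysozyme gene, had signals of 5629.2 and 5497.6 unstimulated and 6341.4 and 5843.4 after LPS. Neither group thus lacked these 2 markers, but others of the list were dimmer. Itgam had 31.4 and 51.7 unstimulated and 11.8 and 33.5 after LPS, and Fcgr1 had 193.2 and 279.9 against 155.3 and 194.1. None of the tested markers of lymphocytes (3 for T and NK and 2 for B cells), granulocytes (3 for neutrophils and 2 for mast cells), dendritic cells (2) or red cell precursors (1) was called. The T cell genes Cd3d and Cd3e lay at or under a signal of 4.2 on all 4 arrays, and the neutrophil precursor gene Mpo at or under 5.4. Other markers were not at the floor: the neutrophil gene S100a8 had 768.9 and 742 unstimulated and 742 and 902.4 after LPS, and the B cell gene Blnk 240.3 and 248.6 against 282.7 and 312. The T cell gene Cd3g lay between 11.6 and 20.6 and the neutrophil gene Camp between 36 and 85.8. Stromal genes were present: the summed signal of 11 such genes was 5307 and 5116 unstimulated and 4485 and 4076 after LPS. Of these 11 genes, 6 had a change below 0, and the list median was −0.09. Thbs2 was lower at −0.91 ± 0.18 and Col1a1, a collagen chain, at −0.66 ± 0.14, and the other 9 were not called. Among those 9, Dcn went from 65.5 and 67.7 to 98.9 and 98.8 and Pdgfra from 101.5 and 64.6 to 141.7 and 138.5. The part of the stromal genes in the other results was not tested. The Col1a1 call was lost without LPS replicate 2 and with a variance prior that had no trend. The arrays measure whole cultures, in which fewer cells of a type and less RNA per cell cannot be told apart.

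On the authors' scale more genes were lower than higher after 4 h of LPS, a split that turned with equal array medians, and the largest changes were of higher genes. Of 12914 genes tested, 2689 (20.8%) were called by limma at a Benjamini-Hochberg adjusted p under 0.05. Counted by probe set, 4782 of 27931 (17.1%) were called, 2842 lower (10.2%) and 1940 higher (6.95%). By gene, the signals of 1680 (13%) were lower and those of 1009 (7.81%) were higher. At least 2-fold changes were called for 567 lower genes (4.39%) and 416 higher genes (3.22%). Past a log2 change of 3 there were 4 lower genes and 75 higher genes. The lower genes had a median log2 change of −0.81 and reached −3.55, and the higher genes had a median of 0.85 and reached 8.41.

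That split depended on how the arrays were put on one scale. With the authors' scaling, 62.5% of called genes were lower, and the median of all tested genes was −0.15. Quantile normalization gave 1503 lower and 982 higher genes, 60.5% of calls lower, with a median of −0.09. Setting the arrays to equal medians gave 1078 lower and 1378 higher genes, 43.9% of calls lower, with a median of −0.02. Of the 1680 lower genes, 1033 (61.5%) were lower under all 3 scalings, and 958 (94.9%) of the 1009 higher genes were higher under all 3. No gene called lower was called higher under another scaling. Among changes of at least 2-fold, 358 genes were lower and 413 higher under all 3. Individual genes below are given on the authors' scale, relative to which the median gene lay at −0.15.

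**Figure D1:**
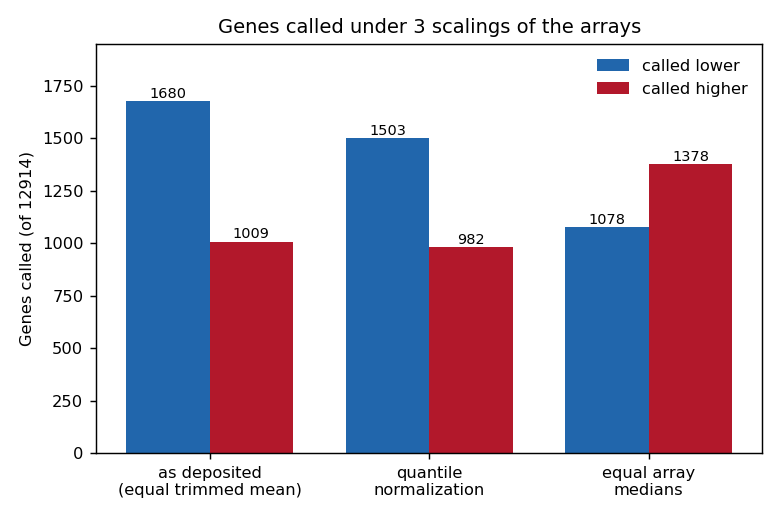
Number of genes called lower and higher after 4 h of LPS in wild-type macrophages under 3 ways of scaling the arrays. The y axis is the number of genes, from 0, and bars are labelled with their counts. Lower genes number 1680, 1503 and 1078 and higher genes 1009, 982 and 1378, so the larger class changes with equal medians.

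Single arrays also bore on the counts. Without unstimulated replicate 1, 990 genes were lower, without unstimulated replicate 2, 1084, and without LPS replicate 1, 1024. The last of these fits gave 669 higher genes. Of the 1680 lower genes, 732 were called in all 4 fits that left out 1 array, and of the 567 lower at least 2-fold, 355 were. The corresponding counts for the higher genes were 574 of 1009 and 356 of 416. The lowest of these leave-one-out counts were more than 1.5 times smaller than those with all arrays, and such fits rest on a single array in 1 group. All 1680 lower and all 1009 higher genes had 4 h signals that did not overlap the unstimulated ones, but so did 61.7% of all tested genes.

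The 2 directions differed in where on the signal scale the genes began and ended. Among those lower by at least 2-fold, 6 of 567 had a mean unstimulated signal under the array median, and 108 had a mean LPS signal under it. Among the genes higher by at least 2-fold, 55 of 416 started under the median and none ended there. Both are in part set by the filter, which keeps a gene that is above the median in 1 group alone, and by the added 4.4. The plot of LPS against unstimulated signal shows this shape.

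**Figure D2:**
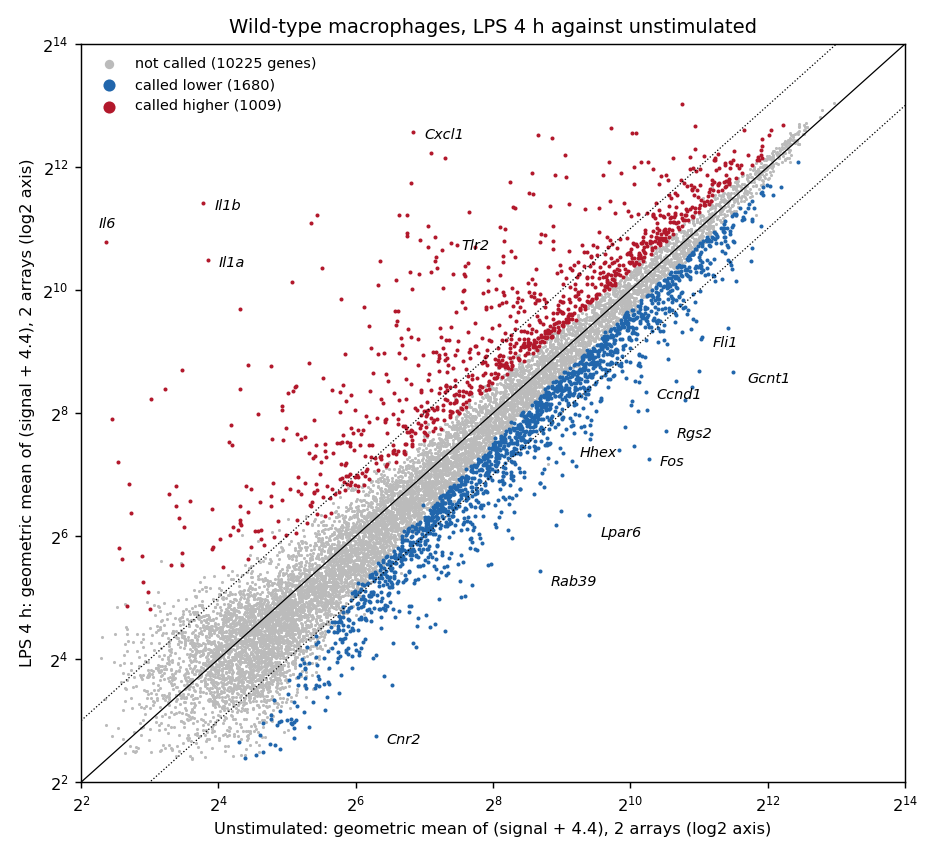
Geometric mean of (signal + 4.4) over the 2 LPS arrays (y axis, log2) against that over the 2 unstimulated arrays (x axis, log2), 1 point per tested gene. Blue points are the 1680 genes called lower and red points the 1009 called higher, the solid line marks no change and the dotted lines 2-fold. Red points reach farther from the solid line than blue ones, to a log2 change of 8.41 for Il6 against −3.55 for Cnr2.

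The gene with the lowest change was Cnr2, the cannabinoid receptor of immune cells. Its signal was 87 and 62.9 in unstimulated cells and 2 and 2.6 after LPS, under the 4.4 added before taking logs. The change was −3.55 ± 0.48 (adjusted p = 2.29e-05), and as both LPS values lie near the floor of the array, its size is uncertain. Lpar6, a receptor for lysophosphatidic acid, gave signals of 627.9 and 720.6 unstimulated and 81.1 and 72.2 after LPS. Its change of −3.06 ± 0.13 (adjusted p = 2.57e-12) was large against the gap between replicates, and the groups lay far apart. Rgs2, which shortens signalling by G proteins below such receptors, went from 1469.8 and 1445.5 to 198.1 and 211.3. That is a change of −2.81 ± 0.10 (adjusted p = 3.46e-13), and both other probe sets of Rgs2 were lower too (−3.63 and −2.16).

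Membrane traffic and signalling genes stood next to them. Rab39, a small GTPase of endosomes and phagosomes, had signals of 439.5 and 373.3 unstimulated and 30.4 and 48.8 after LPS, a change of −3.25 ± 0.27 (adjusted p = 3.18e-08). Cyth4, an exchange factor for ARF GTPases, went from 536.7 and 476.6 to 73.1 and 88.3 (−2.59 ± 0.15). Map3k1, a MAP kinase kinase kinase, had 1874.5 and 1942.7 unstimulated and 328.9 and 351.9 after LPS. Its change was −2.47 ± 0.14 (adjusted p = 1.55e-10), and none of the 4 h values came near the unstimulated ones. Rassf2, a Ras-associated growth inhibitor, changed by −2.69 ± 0.28 and Spry3, a Sprouty-family gene, by −2.68 ± 0.44. Spry3 had LPS signals of 4.7 and 14.9, which straddle the low end of what the array resolves.

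Fos, a subunit of the AP-1 transcription factor, was both an early induced and a late lowered gene. Its signal was 1116.8 and 1359.5 in unstimulated cells, 3230 and 3558.2 after 1 h of LPS and 163 and 135.8 after 4 h. The change at 4 h was −3.01 ± 0.12 (adjusted p = 8.12e-13), and at 1 h it was 1.46 (adjusted p = 1.45e-07). The 3 sets of values did not overlap. The 1 h and 4 h comparisons share the unstimulated arrays, which were kept for 4 h.

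Hhex, a homeobox transcription factor of blood cells, had signals of 1097.2 and 1010 unstimulated and 600.2 and 510.1 after 1 h. After 4 h they were 174.1 and 169.3, a change of −2.59 ± 0.12 (adjusted p = 1.32e-11), so the 1 h arrays lay between the other groups. Gcnt1, a Golgi enzyme that branches O-linked glycans, was among the most abundant of these transcripts, at 2828.9 and 2918.1 unstimulated against 389.5 and 414.6 after LPS. Its change was −2.82 ± 0.10 (adjusted p = 1.37e-13), and a second probe set of Gcnt1 gave −1.56. Lfng, a glycosyltransferase that modifies Notch receptors, changed by −2.48 ± 0.24.

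Ubiquitin ligases were represented by Marchf1, which removes MHC class II and CD86 from the cell surface. Marchf1 went from 176.7 and 186.5 to 28.4 and 26.9, a change of −2.54 ± 0.20 (adjusted p = 2.41e-08). Rnf144b, another ubiquitin ligase, went from 864.4 and 947 to 160.5 and 167.3 (−2.43 ± 0.11). Klhl6, a BTB and Kelch domain protein, changed by −2.56 ± 0.30. Nrg2, a ligand of ErbB receptors, went from 94.6 and 82.1 to 8.5 and 6.6 (−2.96 ± 0.34), the second of which is close to the added 4.4.

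The rest of the 22 lowest genes chosen by rank were Cd300lb, Susd3, Tmem273, C130050O18Rik, the predicted gene Gm11517 and the pseudogene Hmga2-ps1. Cd300lb is described with its family below, and the other 5 changed by between −2.84 and −2.56. Hmga2-ps1 resembles Hmga2, and its probe set may also read that gene. Of the 22 genes, 7 had other tested probe sets, 9 in all, of which 5 were called lower, 4 were not called and none was called higher. Each of the 22 stayed called in every alternative processing that could test it. Between the unstimulated and the 1 h arrays, 4 of the 22 were called lower (Hmga2-ps1, Hhex, Map3k1 and Rnf144b) and Fos was called higher, against 3.89% lower and 3.29% higher of all genes at 1 h. The 22 were ranked with the same unstimulated arrays.

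**Figure D3:**
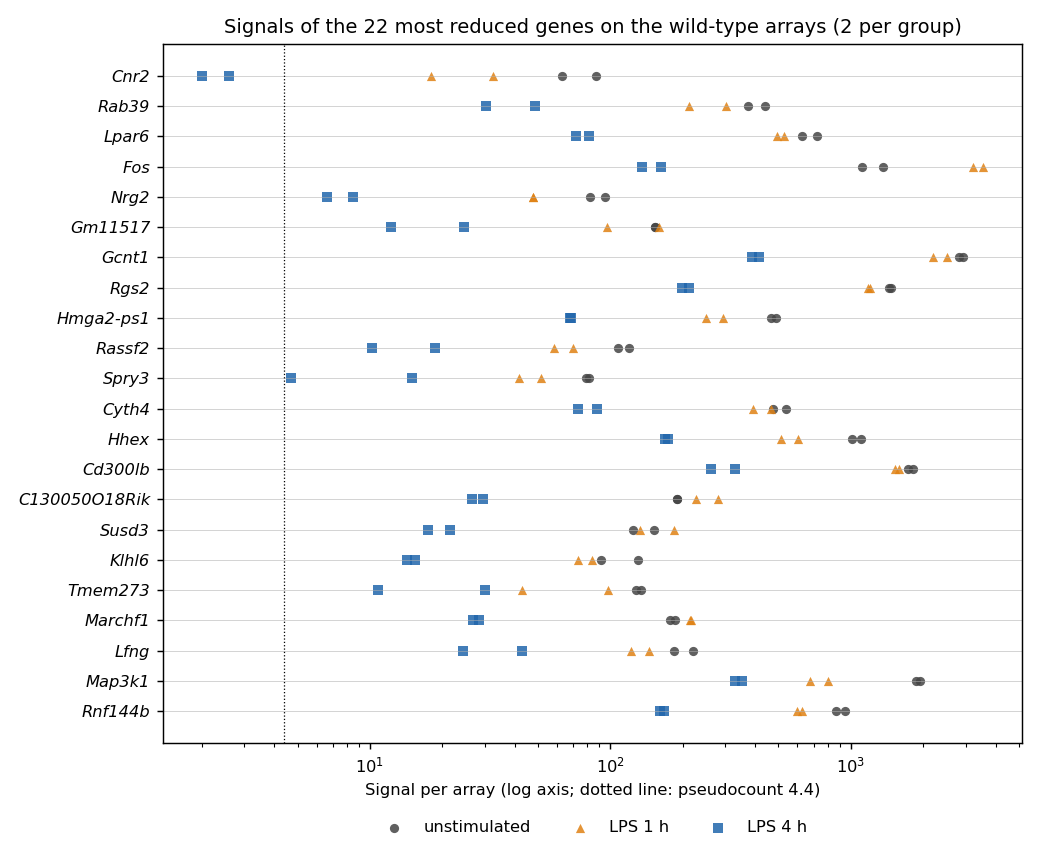
Signal (x axis, log scale) of the 22 most lowered genes on each wild-type array, with circles for unstimulated, triangles for LPS 1 h and squares for LPS 4 h, 2 arrays each, and a dotted line at 4.4. For every gene the 4 h squares lie left of the unstimulated circles. The 1 h triangles lie right of the circles for Fos, at 3230 and 3558.2, and by less for C130050O18Rik (280.2 and 227.7) and Marchf1 (214.2 and 216.9).

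Promoter sequences of genes with opposite responses are shown so that the motif counts that follow can be read against real letters. They are picked examples and do not stand for their direction. The window of the lowered gene Fos, not shown, holds a kappaB match and TATAAA. Those of the induced genes Shisa3 and Nr4a3 hold no match. They cover the 250 bases before the transcription start, from RefSeq on GRCm38.p6, and are written 5′ to 3′ along the gene. Cxcl10, an interferon-induced chemokine gene that rose by 5.07 ± 0.20, has its window at chr5:92348890-92349139 on the minus strand. Its capitals mark an ISRE core at 213 to 204 bases before the start, kappaB matches at 159 to 150 and 103 to 94, and an AP-1 match at 74 to 68. Ifit1, an antiviral gene that rose by 4.47 ± 0.14, has its window at chr19:34640639-34640888 on the plus strand, and its capitals mark ISRE cores at 104 to 95 and 85 to 76.
Cxcl10: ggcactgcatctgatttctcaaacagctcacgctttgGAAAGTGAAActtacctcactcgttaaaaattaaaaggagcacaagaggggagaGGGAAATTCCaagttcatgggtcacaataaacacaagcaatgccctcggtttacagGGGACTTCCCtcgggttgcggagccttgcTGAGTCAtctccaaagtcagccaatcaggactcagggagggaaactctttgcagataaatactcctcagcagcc
Ifit1: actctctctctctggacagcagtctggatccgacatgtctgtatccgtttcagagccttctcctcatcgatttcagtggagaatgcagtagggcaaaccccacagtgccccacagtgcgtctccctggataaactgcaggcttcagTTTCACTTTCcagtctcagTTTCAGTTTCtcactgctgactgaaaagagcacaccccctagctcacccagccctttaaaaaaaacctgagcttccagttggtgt

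A pair of lowered genes without any match to the 9 motifs searched is shown for their CG content, with each CG dinucleotide in capitals. Lpar6, at chr14:73237641-73237890 on the plus strand, holds 1 CG in its 250 bases. Hhex, at chr19:37434591-37434840 on the plus strand, holds 32.
Lpar6: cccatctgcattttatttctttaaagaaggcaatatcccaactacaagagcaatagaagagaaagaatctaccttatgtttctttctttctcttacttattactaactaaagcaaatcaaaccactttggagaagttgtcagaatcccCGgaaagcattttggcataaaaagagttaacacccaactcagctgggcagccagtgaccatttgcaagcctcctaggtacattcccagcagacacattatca
Hhex: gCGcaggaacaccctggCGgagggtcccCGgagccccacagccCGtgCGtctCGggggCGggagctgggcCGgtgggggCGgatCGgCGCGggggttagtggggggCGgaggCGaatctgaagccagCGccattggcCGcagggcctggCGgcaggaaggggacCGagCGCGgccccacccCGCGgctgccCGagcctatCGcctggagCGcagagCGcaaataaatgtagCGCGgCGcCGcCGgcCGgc

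Among tested genes, 10403 had a promoter window and 8291 had exactly 1, of which 331 were lower and 252 higher by at least 2-fold. The kappaB consensus, bound by NF-kappaB, was present in 4.47% of all 8291 windows, 5.14% of the lower and 11.5% of the higher ones. The AP-1 letters TGAGTCA were in 3.14% of all, 1.21% of the lower and 8.33% of the higher windows. The ISRE core, read by interferon-activated factors, was in 2.65%, 1.51% and 7.14%. Some of these shares rest on few windows, with 4 lower ones holding the AP-1 letters and 5 the ISRE core. Among the 35 windows of genes lower by at least 4-fold, 8.57% held the kappaB consensus, 0% the AP-1 letters and 5.71% the ISRE core. Among the 99 of genes higher by at least 4-fold the shares were 14.1%, 12.1% and 12.1%. These shares are counts, with no test of their differences.

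Motifs of lineage, growth and basal transcription factors were counted in the same way. The PU.1 letters GAGGAAGT were in 2.53% of all windows, 3.63% of the lower and 1.59% of the higher ones. The E2F letters TTTCCCGC were in 1.81%, 2.42% and 1.59%, and the other E2F form TTTGGCGC in 0.844%, 0.604% and 0%. The cyclic AMP response element TGACGTCA was in 2.67%, 2.42% and 0.794%, and TATAAA in 6.98%, 8.16% and 11.5%. The MEF2 site was in 0.326%, 0.604% and 0%. Only 2 lower windows held the MEF2 site, and 2 held TTTGGCGC. Both strands were searched, the windows exclude distant enhancers, and a match is a description of letters.

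CG dinucleotides, which are dense in the promoters of many widely expressed genes, were counted in the same windows. The median window held 15 CG over all genes, 16 in genes lower and 12 in genes higher by at least 2-fold. Among the 35 windows of genes lower by at least 4-fold the median was 9, as among the 99 of genes higher by at least 4-fold. Windows with 3 or fewer CG made up 10.4% of all, 28.6% of the former and 27.3% of the latter.

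Transcription factors of the macrophage lineage were lowered in part. Of 29 tested, 10 (34.5%) fell and 6 rose, against 13% and 7.81% of all genes. All 10 remained lower under the 3 scalings, although the list median of −0.10 turned to 0.04 with equal medians. Fli1, an ETS factor of blood cells, had signals of 2075.3 and 2104.8 unstimulated and 546.4 and 622.8 after LPS, a change of −1.83 ± 0.10 (adjusted p = 4.82e-11). Maf, a factor of resting tissue macrophages, went from 3023.6 and 2929.6 to 1096 and 1173.7 (−1.39 ± 0.09, adjusted p = 9.83e-10). Of 5 other Maf probe sets, 4 were lower as well, by between −2.47 and −1.29.

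The lowered set also held Irf8 (−1.31 ± 0.14) and Cebpa (−1.25 ± 0.12), factors that specify monocytes and granulocytes. Klf4, a Kruppel-like factor of monocytes, fell by 1.23 ± 0.16, the nuclear receptor partner Rxra by 1.21 ± 0.14 and the MADS box factor Mef2c by 1.20 ± 0.13. The heme-regulated repressor Bach1 changed by −0.98 ± 0.11. On the other side, Tfec, a relative of MITF found in macrophages, rose by 2.26 ± 0.16 and Cebpb, a C/EBP factor of inflammatory genes, by 1.82 ± 0.14. Cebpa signals dropped from 1257.6 and 1044.8 to 512.1 and 451.8 and those of Cebpb climbed from 219.6 and 250.1 to 893.4 and 792, so these relatives changed in opposite directions.

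Receptors on the cell surface moved both ways. Of 23 tested G protein-coupled receptors for lipids, nucleotides and cannabinoids, 10 (43.5%) fell and 8 (34.8%) rose. Ptger4, a receptor for prostaglandin E2, had 1847 and 2018.2 unstimulated and 732.3 and 740.8 after LPS (−1.39 ± 0.09, adjusted p = 9.52e-10). P2ry6, a receptor for the nucleotide UDP, went from 515.9 and 637.5 to 205.8 and 195.6 (−1.50 ± 0.13). Gpr183, which senses oxysterols, changed by −1.60 ± 0.27. The sphingosine-1-phosphate receptors S1pr1 and S1pr2 changed by −1.56 ± 0.29 and −1.16 ± 0.12. The receptors that rose included Gpr84, which senses medium-chain fatty acids, at 3.50 ± 0.34 and Fpr2, a formyl peptide receptor, at 2.04 ± 0.10.

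Of 29 receptors for chemokines and colony-stimulating factors and related cytokines, 7 fell and 5 rose. With equal medians the counts became 4 and 8, and the list median of −0.10 turned to 0.03. The chemokine receptor Ccr1 changed by −1.16 ± 0.21, the interleukin-6 receptor Il6ra by −1.15 ± 0.18 and the TGF-beta receptor Tgfbr2 by −0.81 ± 0.09. Ccrl2, an atypical receptor that binds chemerin, rose by 4.59 ± 0.15, from 111.4 and 81.1 to 2495.3 and 2292.5. Tnfrsf1b, a receptor for tumour necrosis factor, rose by 1.52 ± 0.09.

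Receptors for uptake of particles and dying cells fell more often than they rose. Of 35 tested, 13 (37.1%) fell and 4 (11.4%) rose, against 13% and 7.81% of all genes. With equal medians 8 fell and 5 rose. Of the 13 genes that fell, 6 were called in all 4 leave-one-out fits. Mertk, which binds apoptotic cells through bridging proteins, had 114.5 and 112.3 unstimulated and 51.2 and 43.5 after LPS (−1.19 ± 0.24, adjusted p = 0.00136). The activating Fc receptor Fcgr3 went from 2115.6 and 2028.6 to 1018.8 and 1004.8 (−1.03 ± 0.09), whereas the inhibitory Fc receptor Fcgr2b went from 63.8 and 43.8 to 507.2 and 484 (3.12 ± 0.29). These Fc receptors thus moved in opposite directions, and all 3 other probe sets of Fcgr2b were higher. The scavenger receptor Scarb1 changed by −0.99 ± 0.15 and its relative Scarb2, a lysosomal membrane protein, by −0.94 ± 0.10.

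Paired receptor families lay in lowered runs of neighbouring genes, and such runs were found on many chromosomes. The longest held 5 genes, from Arid1b to Synj2 on chromosome 17, and how often runs arise by chance was not tested. Cd300lb, an activating receptor of myeloid cells, had 1815.8 and 1728.3 unstimulated and 328.5 and 261.9 after LPS (−2.58 ± 0.11, adjusted p = 1.67e-12). Its inhibitory relative Cd300a, a neighbour on chromosome 11, went from 955.9 and 898.8 to 441.5 and 444.9 (−1.06 ± 0.11). The same run held Cd300ld (−0.80 ± 0.16) and Cd300c2 (−0.36 ± 0.11). The Cd300c2 call was lost with equal medians, with a variance prior that had no trend and whichever array was left out. Its change ran from −0.40 to −0.23 over the alternatives. The Cd300ld call was lost without unstimulated replicate 1. On chromosome 16, the receptor for the inhibitory ligand CD200, Cd200r1, went from 669.8 and 516.9 to 123.9 and 152.2 (−2.06 ± 0.18). Its relative Cd200r4 changed by −0.88 ± 0.14. Members of these families are similar in sequence, and cross-reading between their probe sets cannot be told apart from parallel change.

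Genes of the receptor system for LPS itself moved both ways. Of 28 genes of the TLR4 complex and its adaptors, 13 (46.4%) rose and 4 (14.3%) fell, against 7.81% and 13% of all genes. The share that fell was thus near that of all genes. Tlr4 had 1512.4 and 1515.4 unstimulated and 854 and 806.4 after LPS (−0.86 ± 0.10, adjusted p = 3.61e-06), and of its 3 other probe sets 2 were lower too (−1.60 and −1.12). Cd180, a TLR4-like protein that dampens LPS responses, changed by −0.75 ± 0.10, and Tlr13, a sensor of bacterial ribosomal RNA, by −1.16 ± 0.10. Tlr2, which senses bacterial lipoproteins, rose by 3.38 ± 0.13, its partner Tlr1 by 2.41 ± 0.13, the LPS co-receptor Cd14 by 0.61 ± 0.08 and Irak3, an inhibitor of IRAK signalling, by 2.10 ± 0.13. Receptors and inhibitors were thus found on both sides.

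Genes of the cell cycle were lower more often than higher, as were all tested genes on the authors' scale (13% against 7.81%). Of 20 tested G1 cyclins and inhibitors of cyclin-dependent kinases, 7 (35%) fell and 2 rose, with 4 lower with equal medians and 3 called lower in all 4 leave-one-out fits. Ccnd1, the cyclin D1 gene that couples CSF1 to the cell cycle, had 1080.2 and 1310 unstimulated and 325.4 and 314.3 after LPS (−1.88 ± 0.10, adjusted p = 9.12e-11). The inhibitor Cdkn2c changed by −1.53 ± 0.30 and Cdkn1b by −0.62 ± 0.11, whereas Cdkn1a, the p21 gene, rose by 0.92 ± 0.09. The lowered members of this list thus held both a cyclin and inhibitors of cyclin-dependent kinases.

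Of 33 DNA replication genes, 4 (12.1%) fell and none rose, close to the 13% of all genes. Gins1, a subunit of the replicative helicase, changed by −1.26 ± 0.20. Of 29 DNA repair genes, 7 (24.1%) fell, of which 2 were called in all 4 leave-one-out fits, led by Ung, the uracil-DNA glycosylase gene, at −1.79 ± 0.22. Of 22 mitotic genes, 5 (22.7%) fell, among them the mitotic kinase gene Cdk1 at −0.77 ± 0.18. That count was 3 under either other scaling, and 1 of the 5 was called in all 4 leave-one-out fits. Mki67, the Ki-67 gene, went the other way from 31.1 and 67.4 to 332.6 and 321.7 (2.72 ± 0.24).

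Of 20 sterol synthesis genes, 3 (15%) fell and none rose, near the 13% lower of all genes, with Dhcr7, which makes cholesterol from its last precursor, going from 1009.7 and 921.5 to 211.4 and 218.9 (−2.14 ± 0.12, adjusted p = 1.95e-10). Msmo1, an earlier enzyme of that pathway, changed by −1.16 ± 0.16. Of 18 genes of fatty acid synthesis and of the cholesterol-sensing receptor LXR, 4 (22.2%) fell and 1 rose. Scd2, a stearoyl-CoA desaturase, went from 1071.3 and 1010.9 to 254.3 and 328.8 (−1.83 ± 0.14), and Abca1, a cholesterol exporter, rose by 0.76 ± 0.12.

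Mitochondrial genes gave few calls on the authors' scale. Of 28 genes of fatty acid oxidation, 3 (10.7%) fell, also with equal medians, where 8.35% of all genes were lower, including the carnitine transferase gene Cpt1a at −0.66 ± 0.14. Of 23 tricarboxylic acid cycle genes, 2 fell and 1 rose, with Idh2, the mitochondrial isocitrate dehydrogenase gene, going from 907.2 and 957.4 to 422.7 and 394.4 (−1.18 ± 0.12). Of 36 oxidative phosphorylation subunits, 1 fell and 1 rose, and of 53 mitochondrial ribosomal proteins, 3 fell and 1 rose. Of 22 cytosolic ribosomal protein genes, 1 fell and none rose, whereas 7 rose with equal medians.

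Of 35 lysosomal enzymes and proton pump subunits, 9 (25.7%) fell and none rose. In all 4 leave-one-out fits 2 were called lower. With equal medians, 3 fell and 4 rose, and the median of −0.09 turned to 0.04, so the direction of the list depended on the scaling. Atp6v0d2, a pump subunit of macrophages and osteoclasts, changed by −1.39 ± 0.16. Of 32 Rab GTPases, 6 fell and 6 rose. Rab7b, which guides late endosomes, went from 2148.8 and 1960.1 to 396.7 and 412.6 (−2.33 ± 0.11, adjusted p = 8.51e-12), and Rab20, a phagosome GTPase, rose by 2.07 ± 0.34.

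Several enzymes of membrane lipid signalling fell. Of 27 phosphoinositide signalling genes, 9 (33.3%) fell and 3 rose, of which 6 remained lower under all 3 scalings and 5 were called lower in all 4 leave-one-out fits. Inpp5d, the SHIP1 lipid phosphatase gene of blood cells, went from 1047 and 1002.9 to 296.7 and 255.8 (−1.88 ± 0.12, adjusted p = 4.76e-10). The diacylglycerol kinases Dgkz and Dgkd changed by −1.72 ± 0.15 and −1.01 ± 0.12, and the lipid kinase subunit Pik3cd by −1.40 ± 0.26. Pip5k1a, which makes the lipid that Pik3cd acts on, rose by 1.25 ± 0.14.

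Of 39 chromatin modifiers, 9 (23.1%) fell and 3 rose, with 5 in each direction with equal medians and 5 lower in all 4 leave-one-out fits. Dnmt1, the maintenance DNA methyltransferase gene, changed by −1.36 ± 0.17 and the histone deacetylase Hdac5 by −1.43 ± 0.32. Tet2, which oxidises methylcytosine, rose by 1.44 ± 0.16. The Zfp series of zinc finger genes, 197 tested, had 20 lower (10.2%) and 7 higher (3.55%), both under the share of all genes, and 9 of the 20 were lower in all 4 leave-one-out fits. Zfp618 changed by −1.63 ± 0.16 and Zfp362 by −1.60 ± 0.21.

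Transporters rose more often than they fell. Of 44 solute carriers, 15 (34.1%) rose and 8 (18.2%) fell. Slc40a1, the iron exporter ferroportin, went from 650.3 and 659.3 to 248 and 235.5 (−1.42 ± 0.13, adjusted p = 9.07e-08). The arginine transporter Slc7a2 went from 328.3 and 302.1 to 2643.7 and 2511.4 (3.01 ± 0.15), and the zinc and iron importer Slc39a14 rose by 2.30 ± 0.19. Of 25 iron and heme genes, 6 fell, among them the heme synthesis gene Cpox at −1.01 ± 0.17, and 2 rose, among them the siderophore-binding Lcn2 at 0.98 ± 0.13.

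Of 25 genes of TGF-beta and bone morphogenetic protein signalling, 6 (24%) fell and 4 (16%) rose, against 13% and 7.81% of all genes. Among them Ski, a repressor of SMAD proteins, changed by −1.17 ± 0.15. Of 25 Notch and Wnt genes, 1 (4%) fell, the Wnt receptor Fzd7 at −1.08 ± 0.16, and 4 (16%) rose, including the Notch ligand Jag1 at 0.95 ± 0.10. Of 19 glycolysis and hypoxia genes, 5 (26.3%) rose and 1 (5.26%) fell, and with quantile normalization 3 rose and 2 fell. Of 22 genes of the unfolded protein and integrated stress response, 7 (31.8%) rose and 3 (13.6%) fell. The lower share was near that of all genes. The rise was largest for Herpud1, a component of the endoplasmic reticulum degradation machinery, at 1.56 ± 0.15. Of 31 proteasome subunits, 8 (25.8%) rose and none fell, by 0.72 ± 0.10 for Psma6. The count was 5 with quantile normalization and 11 with equal medians, and 3 were called in all 4 leave-one-out fits. Of 11 MHC class II genes, 1 (9.09%) rose, near the share of all genes.

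**Figure D4:**
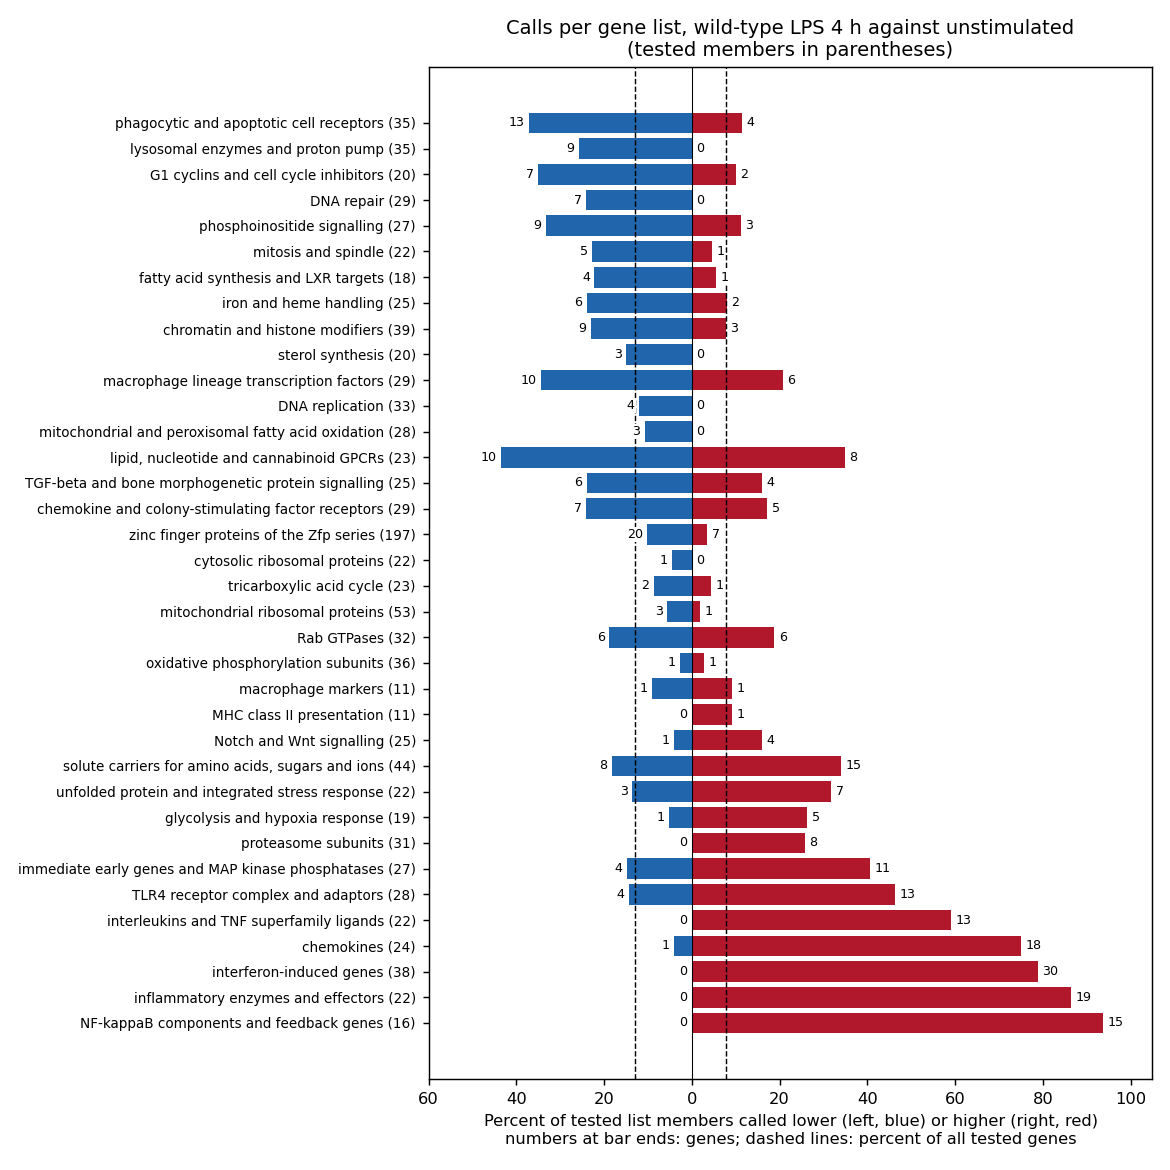
Percent of the tested members of each gene list called lower (left, blue) and higher (right, red) after 4 h of LPS, with counts at the bar ends and tested members in parentheses. Dashed lines mark the 13% lower and 7.81% higher of all tested genes. NF-kappaB genes reach 93.8% on the right, and the longest bars on the left, at 43.5% and 37.1%, are those of lipid and nucleotide receptors and of phagocytic receptors.

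The induced side held larger single changes. Il6, the interleukin-6 gene, had signals of 0.9 and 0.6 in unstimulated cells and 1722.1 and 1779.2 after LPS, the former under the 4.4 added before taking logs. On that scale it rose by 8.41 ± 0.35 (adjusted p = 1.71e-12). Il1b and Il1a, the interleukin-1 genes, rose by 7.64 ± 0.18 and 6.65 ± 0.44. Cxcl1 and Cxcl5, ligands that draw neutrophils, each rose by 5.73, and Cxcl1 went from 110 and 110.3 to 6302 and 5895.9. Nlrp3, an inflammasome sensor, rose by 5.78 ± 0.20, the co-stimulatory receptor Cd40 by 5.38 ± 0.31, the orphan nuclear receptor Nr4a3 by 5.24 ± 0.40, the oxidised lipoprotein receptor Olr1 by 5.22 ± 0.33 and Shisa3 by 5.45 ± 0.71. For Shisa3, Olr1 and Nr4a3 at least 1 unstimulated signal lay under 4.4, so the size is uncertain. Over the alternatives it ran from 3.40 to 6.90 for Shisa3, 3.54 to 6.11 for Olr1 and 3.80 to 6.05 for Nr4a3. The change of Il6 ran from 6.20 to 9.97. A second, dim probe set of Nr4a3 gave −0.76 and was not called.

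In the 5 inflammatory lists most genes were called higher, and each count changed by at most 1 gene between the 3 scalings. Of 16 NF-kappaB components and feedback genes, 15 (93.8%) rose, including the inhibitor Tnfaip3 at 3.71 ± 0.16 and the subunit Nfkb2 at 3.22 ± 0.25. Of 22 inflammatory enzymes and effectors, 19 (86.4%) rose, including the prostaglandin E synthase Ptges at 4.13 ± 0.16. Of 38 interferon-induced genes, 30 (78.9%) rose, led by the antiviral GTPase Mx1 at 4.85 ± 0.22. Of 24 chemokines, 18 (75%) rose and 1 fell, and of 22 interleukins and TNF superfamily ligands, 13 (59.1%) rose and 9 did not pass the test. None of the first 3 lists held a lower gene.

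Immediate early genes and MAP kinase phosphatases were called in both directions at 4 h. Of 27 tested, 11 (40.7%) rose and 4 (14.8%) fell, against 7.81% and 13% of all genes, so the lower share was near that of all genes. Besides Fos, the lower ones were its AP-1 partner Jun, from 1911.7 and 1862.1 to 633.8 and 679.9 (−1.52 ± 0.09), and the ERK phosphatases Dusp6 (−2.08 ± 0.13) and Dusp7 (−1.78 ± 0.20). Among the higher ones were Ier3 at 2.68 ± 0.15 and Csrnp1 at 2.53 ± 0.20.

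The same contrast in kinase-dead cells used 4 arrays that share no sample with the wild-type ones, in 2 unstimulated and 2 LPS 4 h cultures. Their median signals were 26.2 and 25 unstimulated and 24.9 and 24.2 after LPS, above the 18.9 to 22 of the wild-type arrays. Unstimulated replicate 1 had the highest 3′ to 5′ ratios of the series, 1.35 for Gapdh and 3.04 for Actb, and the part of these values in the strain differences was not tested. In those cells 803 genes (6.22%) were lower and 829 (6.42%) higher. Of the 1680 genes lower in wild type, 1400 (83.3%) had the same sign in kinase-dead cells, 539 (32.1%) were called lower and 25 were called higher. Their median change was −0.81 in wild type and −0.35 in kinase-dead cells. The test of the difference between the responses was called for 224 of the 1680 (13.3%), and in 223 of these the response was smaller in kinase-dead cells. The genes were chosen on the wild-type change, which biases its size away from 0 and the difference with it, so the direction of these differences is in part set by the choice. Over all 12914 genes the difference, KD response minus WT response, was called above 0 for 2.56% and below 0 for 1.38%.

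Of the 567 genes lower at least 2-fold in wild type, 226 (39.9%) were called lower in kinase-dead cells, and the difference was called for 116 (20.5%), each with the smaller response in kinase-dead cells. Of the 416 genes higher at least 2-fold, 323 (77.6%) were called higher in kinase-dead cells, and the difference was called for 103 (24.8%), of which 101 were smaller there. Here too the wild-type change that chose the genes is a term of the difference and in part sets its direction. Whether the lower and higher genes differ in these shares was not tested.

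**Figure D5:**
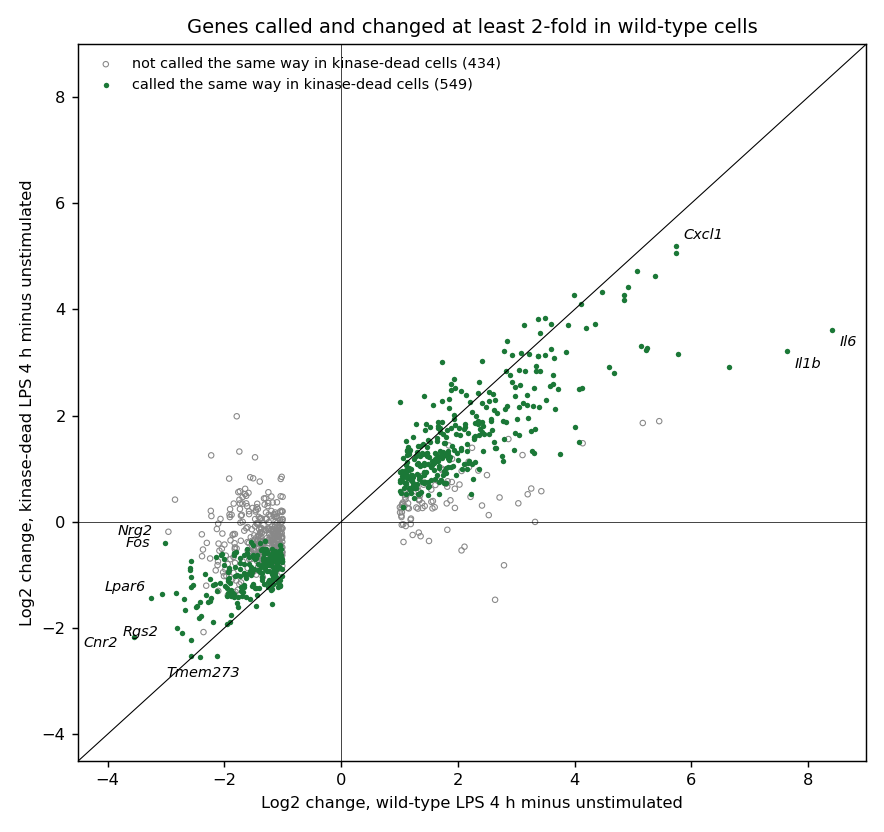
Log2 change in kinase-dead cells (y axis) against that in wild-type cells (x axis) for the 983 genes called and changed at least 2-fold in wild type, LPS 4 h minus unstimulated, 1 point per gene, with the line of equal change. Filled points are the 549 genes called the same way in kinase-dead cells and open points the 434 that were not. Nrg2 lies near 0 in kinase-dead cells, at −0.19, and Il6 well under the line, at 3.62.

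Among the lowered factors, Fli1 changed by −0.62 in kinase-dead cells against −1.83 in wild type (adjusted p of the difference = 9.68e-05), and Maf by −0.21 against −1.39 (adjusted p = 8.33e-05). Klf4 gave −0.13 against −1.23 (adjusted p = 0.00916). Cebpa gave −1.14 against −1.25 and Mef2c −1.29 against −1.20, with differences of 0.11 ± 0.17 (SE, adjusted p = 0.844) and −0.09 ± 0.19 (adjusted p = 0.882). For these 2 genes no difference was detected at that error, which does not show that the strains responded alike.

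Other lowered genes gave either outcome. The difference was called for Dhcr7 (−0.67 in kinase-dead cells), Scd2 (−0.58), Rab7b (−0.97), Cd200r1 (−0.63), Jun (−0.44) and S1pr2 (0.14, not called), each with the less negative change in kinase-dead cells. It was not called for Tlr13 (−1.07), Scarb2 (−0.95), Slc37a2, a sugar phosphate transporter (−0.99 against −0.97), Inpp5d (−1.39) or Zfp618 (−1.41), which were called lower in both strains. Of the 11 stromal genes tested, 6 were higher after LPS in kinase-dead cells, against 2 lower in wild type, and their part in the strain differences was not tested.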

How the data were processed

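RNA from each culture was purified with Qiagen RNeasy, amplified and labelled with NuGEN Ovation kits and hybridised to an Affymetrix array, per the labels' protocols. The deposited value table holds MAS5 signal intensities on a linear scale, which the authors had scaled to equal trimmed means, as the values show; the MAS5 version is not given in the sources used here. Of 45101 probe sets, 64 controls were left out, and 27931 were tested, those with 2 or more of the 12 arrays over that array's median. Signals were converted to log2(signal + 4.4), 4.4 being the 20th percentile of all values. All 12 arrays were fitted as 6 group means with limma 3.58.1 in R 4.3.3, with a variance trend, and p-values were adjusted by the Benjamini-Hochberg method over all probe sets tested. Adjusted p in the text comes from this fit. An exact permutation test of 2 arrays against 2 cannot go below p = 0.333. Platform annotation gave 1 symbol to 23324 tested probe sets, and each of 12914 genes was read from its brightest probe set, with those marked as not specific last. A list is described by its counts and its median, with no set test. A further list is not reported here.

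Genes were named by rule: the 20 lowest and 10 highest changes among called genes whose arrays did not overlap, the 20 lowest among genes with a mean unstimulated signal of at least 87.6 (4 times the median), and, from each list, the 4 largest called changes or fewer. Others named were chosen after their values were seen. The members and lists were chosen with earlier results of these data known. The fit was tested on simulated data with known changes. Promoter windows came from RefSeq, matched by symbol. The alternatives tried were other scalings, filters, pseudocounts, variance priors, the 4 arrays alone, a replicate block and leaving out each array. The number of arrays limits the precision.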

Additional observations from a re-analysis of the deposited data

Results flagged for a closer look

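For 20 of the 32 genes named by rank, the response to 4 h of LPS differed between kinase-dead and wild-type cells by the test of that difference itself (limma, adjusted p under 0.05 over all probe sets). Values are the kinase-dead response minus the wild-type response, in log2 units. Among 15 of the 22 lowered genes the difference was above 0, so that the change was less negative in kinase-dead cells. It was 3.26 for the predicted gene Gm11517, whose change in kinase-dead cells was 0.42 and did not pass the test. It was 2.77 for Nrg2, 2.61 for Fos, 1.84 for Cd300lb, 1.81 for Rab39, 1.71 for Hhex, 1.70 for Lpar6, 1.68 for Cyth4 and 1.54 for C130050O18Rik. It was 1.48 for Gcnt1, 1.35 for both Susd3 and Marchf1, 0.89 for Map3k1, 0.80 for Rgs2 and 0.63 for Rnf144b. Among 5 of the 10 most induced genes it was below 0, at −4.79 for Il6, −4.43 for Il1b, −3.72 for Il1a, −2.62 for Nlrp3 and −1.98 for Olr1.

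These genes were picked by their wild-type change, which biases that change away from 0 and the difference with it. Over all 12914 genes the difference was called above 0 for 2.56% and below 0 for 1.38%. It was called for 20.5% of the genes lower and 24.8% of those higher at least 2-fold in wild type.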

How the results depend on the processing

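The 32 genes named by rank kept the direction and call of their wild-type change at 4 h in every alternative that could be fitted. The differences between the strains were not examined under the alternatives. The 222 called genes that were followed include those chosen after their values were seen, which favours stable calls. None of them reversed under an alternative, and the call was kept in 2693 comparisons with one and lost in 172. With equal medians, 1809 probe sets and 1078 genes were lower, against 2842 and 1680, and 1378 genes were higher. At least 2-fold lower probe sets numbered 1029 and became 631 with a filter at the 75th percentile and 595 with the median added in place of 4.4. The 2-fold split of 1029 lower and 875 higher turned to 721 and 941 with quantile normalization, 713 and 1086 with equal medians, 631 and 712 with the stricter filter and 595 and 750 with the larger pseudocount. Without a trend in the variance prior, 1830 probe sets were lower, with 1091 genes lower and 672 higher. Leaving out 1 array gave 1620 to 2150 lower and 1235 to 1512 higher probe sets, 773 to 1134 and 734 to 884 at least 2-fold, and 990 to 1256 lower and 669 to 769 higher genes. Among markers that did not pass the test, the log2 change of Zap70 in WT at 4 h turned to 0.0528 (quantile) and 0.0348 (equal medians), and the log2 change of Gata2 in WT at 4 h to 0.0701 and 0.0687. Leaving out 1 array, Zap70 ranged from −0.63 to 0.43 (above 0 without LPS replicate 2), S100a8 from −0.0255 (without LPS replicate 2) to 0.26 and Gata2 from −0.30 to 0.17 (above 0 without unstimulated replicate 1). The cause was not tested. With the replicate number as a block, 2655 probe sets were lower and 1843 higher. Differences between replicates 1 and 2 correlated at 0.0178 between the unstimulated and the LPS arrays. That value cannot show whether same-numbered cultures were paired. At an unadjusted p under 0.05, 7715 probe sets passed. With 2 arrays a group, signals near 4.4 carry no reliable fold.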
